A study of Homo sapiens with 12 samples.

Results

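The genes described here are 45 genes of the hypoxia-inducible factor (HIF) system and of glycolysis. They comprise the HIF subunits, the proteins that sense oxygen and mark HIF for destruction, well-known HIF targets, and the transporters and enzymes that take up glucose and turn it into lactate. They were chosen by symbol from knowledge of the pathway, with earlier results of these data known. They were matched to the Ensembl identifiers of the deposited table, of which they are 45 of 85298. All 45 passed the filter on low counts that left 26366 tested genes. The cells are HEK 293T, a line from human embryonic kidney, and their polyadenylated RNA was sequenced. The control cells carried a scramble hairpin, and the knockdown cells carried 1 of 2 hairpins against SIDT2, shRNA-B or shRNA-D, with 4 libraries in each of these 3 groups. SIDT2 encodes a lysosomal membrane protein known for moving RNA into lysosomes. All groups received lentivirus with polybrene at 4 µg/mL and were collected 72 h later. All were grown with 4500 mg/L glucose, 110 mg/L pyruvate, 2 mM glutamine and 10% serum. Each group is a transduced population of a single line, and no oxygen level and no hypoxia treatment is named in the labels. The titles number the libraries 1 to 4 within each group, and the labels do not say what a number stands for.

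When oxygen is plentiful, prolyl hydroxylases of the EGLN family hydroxylate HIF alpha subunits, and the VHL ubiquitin ligase then marks them for degradation. When oxygen or the cofactors of the hydroxylases run short, the alpha subunits HIF1A or EPAS1 persist, pair with ARNT and bind a short core motif near their targets. Control is mainly at the level of the protein, so the mRNA of the alpha subunits is a poor guide to HIF activity. Targets raise glucose uptake and glycolysis, hold pyruvate out of mitochondria, remove mitochondria by mitophagy, manage acid and stimulate blood vessel growth. Cell lines such as HEK 293T take up much glucose and release much of it as lactate in culture.

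Library totals lay between 68737402 and 102644699 estimated counts. Levels are given as CPM (counts scaled to a common library total after TMM normalization), and differences as signed log2 values ± SE (standard error), negative where the level was lower. Both the differences and their p-values are from edgeR's quasi-likelihood test, adjusted by Benjamini-Hochberg over all 26366 genes, and a gene counted as called when the adjusted p was under 0.05. The targeted gene SIDT2 was at 21.7, 20.5, 18.3 and 19.7 CPM in scramble libraries 1 to 4, 6.61, 8.27, 5.77 and 6.75 with shRNA-B and 5.47, 7.2, 7.58 and 7.55 with shRNA-D, without overlap. It fell with shRNA-B (-1.55 ± 0.14, adjusted p = 0.000146) and with the other hairpin (-1.53 ± 0.14, adjusted p = 0.000515). Of 7 genes listed as markers of the line, VIM, KRT8, KRT18, CDH2 and NEFM were above 4 CPM in every library. The kidney transcription factors PAX2 (1.40 to 5.99 CPM) and LHX1 (0.391 to 1.12 CPM) were low. Of 24 markers of leukocytes, fibroblasts, endothelium, hepatocytes, red cells, muscle and squamous epithelium, 21 stayed under 1 CPM in every library and 12 were at 0 in at least 1. The labels do not say whether the 4 libraries of a group came from separate cultures, so the p-values speak of the spread among libraries, which may be technical. In bulk RNA, a lower level in all cells and fewer cells with a high level cannot be told apart.

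Nearly all of the 45 genes differed between replicate numbers. Between scramble and either hairpin 0 were called in the model of group alone. The test by number comes from a model of group and number. In that model 5 members were higher and 6 lower with shRNA-B, beside 4.04% and 5.54% of all tested genes. With shRNA-D 3 were higher and 5 lower, beside 1.05% and 2.26%. With the group held, 44 of the 45 differed by number at an adjusted p under 0.05, beside 47.2% of all tested genes. The exception was HIF1A (adjusted p = 0.167). Ranked by p over all 26366 genes, 18 of the 45 were among the first 1% and 29 among the first 5%. Number 1 held the lowest levels of most members, numbers 2 and 3 the highest, and number 4 lay between. The pattern ran through all 3 groups, scramble included.

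**Figure D1:**
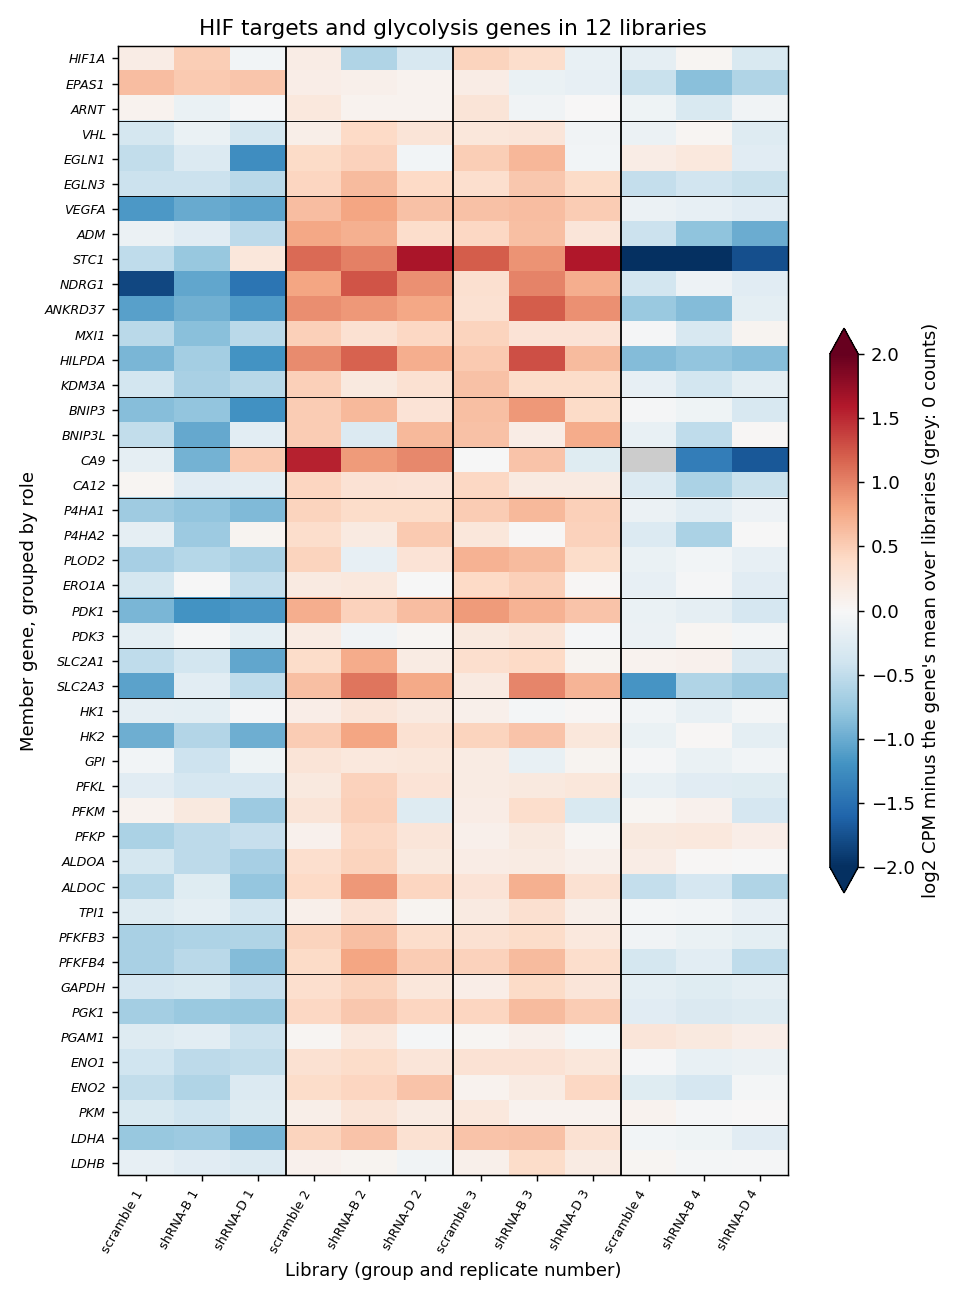
Level of each of the 45 genes (rows, grouped by role) in each of the 12 libraries (columns, grouped by replicate number), as log2 CPM minus the gene's mean over the libraries with counts; colours end at -2 and 2 and grey marks the library with 0 counts of CA9. Libraries of number 1 are blue for nearly all targets and enzymes, numbers 2 and 3 are red, and STC1 is lowest in number 4.

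In number 1 against the mean of numbers 2 and 3, 41 members were lower and 1 was higher, beside 19.5% and 14.5% of all tested genes. The median difference of the 45 was -0.81, and that of all tested genes was -0.01. For 35 members all 3 libraries of number 1 lay below all 6 of numbers 2 and 3, an order found in 12.3% of all tested genes. Number 4 was lower than the mean of numbers 2 and 3 for 38 members and higher for 0, beside 19.0% and 14.8% of all tested genes. At an unadjusted p under 0.05 the higher count was 1, beside 19.8% of all tested genes. DESeq2 and edgeR without the filter also called 0 higher, with no share over all genes given here for these fits. Against number 1, number 4 was higher for 23 members and lower for 5, beside 14.4% and 13.7% of all tested genes. For 15 members the libraries of number 4 lay wholly between those of number 1 and those of numbers 2 and 3, an order found in 1.37% of all tested genes. Against the mean of numbers 1 to 3 together, number 4 was higher for 2 members and lower for 27, beside 14.0% and 16.5% of all tested genes. Without shRNA-B replicate 4 the lower count was 17, with no share over all genes given here for that fit.

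Between numbers 2 and 3 edgeR made no call in any gene. There 0 members were called higher and 0 lower in number 2 than in number 3, as were 0% of all tested genes in each direction. At an unadjusted p under 0.05, 7 were higher and 5 lower, beside 6.97% and 10.2% of all tested genes. DESeq2 called 2 higher and 1 lower, and edgeR without the filter 2 and 2. Since no share over all genes is given for these fits, the calls cannot be read as particular to the members.

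Some promoters of members are shown because these genes moved together or stood apart. HIF binds a core of 5 letters, ACGTG or GCGTG, within a longer response element. Windows of 300 bases (250 before to 50 after the start site) come from RefSeq (GRCh38.p14) and are written 5′ to 3′ on the strand of the gene. Capitals mark every ACGTG or GCGTG on either strand, so that CACGT or CACGC marks a core on the other strand. In BNIP3, ACGTG on both strands overlaps as CACGTG. BNIP3 and PGK1 hold several cores. PFKFB4, P4HA1 and EPAS1 hold 1 each, and PGAM1 holds 0. The first 4 genes were far lower in number 1 than in numbers 2 and 3. EPAS1 went the other way. PGAM1 was also called lower in number 1, and was among the 7 members not called in number 4 against numbers 2 and 3. PKM and LDHB, with 1 core each, were among these 7 too. EGLN3, with 0 cores, was called lower in both number 1 and number 4.
BNIP3 (chr10:131981874-131982173, minus strand): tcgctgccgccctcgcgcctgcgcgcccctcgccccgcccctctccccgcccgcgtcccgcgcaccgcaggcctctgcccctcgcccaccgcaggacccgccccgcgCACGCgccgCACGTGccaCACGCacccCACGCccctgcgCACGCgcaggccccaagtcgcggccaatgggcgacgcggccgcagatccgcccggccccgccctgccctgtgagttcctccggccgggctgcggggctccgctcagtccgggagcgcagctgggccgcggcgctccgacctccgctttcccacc
PGK1 (chrX:78103998-78104297, plus strand): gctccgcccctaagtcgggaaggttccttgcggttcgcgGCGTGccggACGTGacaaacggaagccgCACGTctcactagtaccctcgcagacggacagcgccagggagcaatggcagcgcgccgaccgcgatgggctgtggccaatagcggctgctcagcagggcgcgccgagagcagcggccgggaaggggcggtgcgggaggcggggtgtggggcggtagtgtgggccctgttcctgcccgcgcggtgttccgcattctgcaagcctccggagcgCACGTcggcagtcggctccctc
PFKFB4 (chr3:48556754-48557053, minus strand): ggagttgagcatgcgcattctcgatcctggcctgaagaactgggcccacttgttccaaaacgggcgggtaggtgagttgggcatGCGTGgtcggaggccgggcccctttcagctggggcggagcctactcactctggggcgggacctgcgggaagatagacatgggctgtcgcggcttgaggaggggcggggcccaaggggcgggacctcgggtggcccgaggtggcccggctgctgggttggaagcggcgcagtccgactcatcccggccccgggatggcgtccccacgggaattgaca
P4HA1 (chr10:73096817-73097116, minus strand): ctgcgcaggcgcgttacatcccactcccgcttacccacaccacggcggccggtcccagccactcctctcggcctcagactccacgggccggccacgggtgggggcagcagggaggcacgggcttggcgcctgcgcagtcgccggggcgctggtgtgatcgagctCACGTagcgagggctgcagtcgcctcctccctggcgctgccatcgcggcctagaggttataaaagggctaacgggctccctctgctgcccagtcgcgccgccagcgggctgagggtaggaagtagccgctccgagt
EPAS1 (chr2:46297157-46297456, plus strand): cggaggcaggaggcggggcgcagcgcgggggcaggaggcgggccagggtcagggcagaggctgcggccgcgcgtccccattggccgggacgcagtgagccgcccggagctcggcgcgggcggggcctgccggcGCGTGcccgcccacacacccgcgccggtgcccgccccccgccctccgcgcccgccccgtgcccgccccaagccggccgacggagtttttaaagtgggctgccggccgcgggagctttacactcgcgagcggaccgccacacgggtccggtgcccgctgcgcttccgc
PGAM1 (chr10:97427568-97427867, plus strand): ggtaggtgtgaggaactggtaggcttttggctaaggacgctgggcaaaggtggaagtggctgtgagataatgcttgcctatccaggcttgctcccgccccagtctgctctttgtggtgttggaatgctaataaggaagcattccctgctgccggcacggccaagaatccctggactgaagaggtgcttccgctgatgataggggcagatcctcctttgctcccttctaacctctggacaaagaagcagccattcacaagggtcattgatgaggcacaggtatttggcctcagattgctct

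Windows were found for 38 of the 45 members, and 26 of these had a single window. At least 1 core stood in 22 of those 26 (84.6%), beside 10466 of 22114 genes with a single window in the whole table (47.3%). Over all windows the gap was smaller, with 44 of 64 member windows (68.8%) beside 17012 of 35116 (48.4%). The genes set beside the members were not limited to those tested here, and the base composition of the windows was not compared. BNIP3 held 6 cores, all within 143 bases before the start site, and PGK1 held 4, 3 of them between 211 and 183 bases before the start site. PGAM1, EGLN3, ARNT and P4HA2 were the single-window members with 0. A match of 5 letters is a description of the sequence and does not show that HIF binds there.

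None of the 3 HIF subunits among the members was called lower in number 1 against numbers 2 and 3. HIF1A (ENSG00000100644), the oxygen-regulated alpha subunit found in most cells, was at 153, 193 and 132 CPM in scramble, shRNA-B and shRNA-D libraries of number 1. In the same order of groups it was at 152, 90.6 and 110.4 CPM in number 2, 188, 175 and 125 in number 3 and 122, 142 and 112 in number 4. The numbers overlapped, and HIF1A was not called between number 1 and numbers 2 and 3 (0.21 ± 0.17, adjusted p = 0.396, 95% interval -0.18 to 0.60). EPAS1 (ENSG00000116016), the second alpha subunit, also called HIF-2 alpha, was at 33.9, 31.8 and 32.6 CPM in number 1, 24.2, 23.8 and 23.2 in number 2, 24.5, 20.2 and 19.8 in number 3 and 16.2, 12.4 and 14.6 in number 4. Its levels in number 1 were above all others and its levels in number 4 below all others. It was the member that was higher in number 1 (0.54 ± 0.07, adjusted p = 4.87e-05), and it was lower in number 4 than in numbers 2 and 3 (-0.66 ± 0.07, adjusted p = 1.32e-05). ARNT (ENSG00000143437), the partner of both, ranged from 68.1 to 101 CPM over the libraries and was not called in number 1 (-0.12 ± 0.06, adjusted p = 0.126).

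Of the genes of oxygen sensing and HIF turnover, the members VHL, EGLN1 and EGLN3 were lower in number 1. The hydroxylases EGLN2 and HIF1AN, which are not members, were higher (0.38 ± 0.06 and 0.37 ± 0.05, adjusted p = 0.000487 and 0.000145). They were picked after their values were seen. Of other HIF subunits and regulators outside the members, CITED2 and the ARNT relative ARNT2 were lower there. HIF3A, CUL2, ELOB, ELOC, RBX1, EP300 and CREBBP were not called. VHL (ENSG00000134086), the substrate receptor of the ubiquitin ligase, was at 117, 136 and 116 CPM in scramble, shRNA-B and shRNA-D libraries of number 1, 162, 197 and 178 in number 2, 174, 176 and 142 in number 3 and 138, 153 and 124 in number 4. All libraries of number 1 lay below those of numbers 2 and 3, and the difference was -0.47 ± 0.07 (adjusted p = 0.000122). The prolyl hydroxylases EGLN1 and EGLN3 are themselves HIF targets. EGLN3 (ENSG00000129521) averaged 14 ± 0.663 CPM (SD, n = 3) in number 1, 27.1 ± 2.39 in number 2, 25.9 ± 2.01 in number 3 and 14.3 ± 0.508 in number 4, with every library of numbers 1 and 4 below every library of numbers 2 and 3. EGLN1 (ENSG00000135766) was lower in number 1 (-0.98 ± 0.08, adjusted p = 1.86e-06), and its values by library are given with the hairpins.

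The 8 secreted and stress targets were lower in number 1 without exception, with a median difference of -1.64. VEGFA (ENSG00000112715), the growth factor of blood vessels, was at 36.5, 40.5 and 39.2 CPM in scramble, shRNA-B and shRNA-D libraries of number 1, 125, 140.5 and 122 in number 2, 122, 125 and 115 in number 3 and 74.9, 72.5 and 69.1 in number 4. All 3 libraries of number 1 lay below all others, and number 4 lay between number 1 and the rest without overlap. Number 1 was below numbers 2 and 3 (-1.69 ± 0.06, 3.22-fold, adjusted p = 5.57e-09), and number 4 was below them (-0.79 ± 0.06, adjusted p = 5.57e-07).

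NDRG1 (ENSG00000104419), a stress-responsive gene often used as a marker of hypoxia, was at 22.9, 39.5 and 29.3 CPM in number 1, 140.3, 194 and 153 in number 2, 101, 160.2 and 135 in number 3 and 62.9, 75.6 and 69.3 in number 4. Its difference between number 1 and numbers 2 and 3, -2.27 ± 0.08 or 4.83-fold (adjusted p = 5.58e-09), was the largest among the 45 genes in the fit with all libraries. STC1 (ENSG00000159167), which encodes the secreted hormone stanniocalcin, was at 2.49, 2.1 and 4.18 CPM in number 1, 7.81, 7.11 and 11 in number 2, 8.23, 6.63 and 10.8 in number 3 and 0.816, 0.601 and 1.05 in number 4. It had another order: number 4 was lowest, below numbers 2 and 3 (-3.39 ± 0.11, 10.5-fold, adjusted p = 3.81e-10), and below number 1 (-1.81 ± 0.12, adjusted p = 2.42e-07). STC1 counts ran from 60 to 974 per library, and the lowest counts were those of number 4. ADM, the vasodilator adrenomedullin, shared the low position of number 4 (10.1 ± 1.46, 18.9 ± 2.81, 16.5 ± 2.06 and 7.45 ± 1.53 CPM, SD, n = 3, in numbers 1 to 4).

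HILPDA, a regulator of lipid droplets, averaged 27.3 ± 4.82, 101 ± 15.9, 93.1 ± 28.2 and 28.9 ± 0.878 CPM in numbers 1 to 4. Its levels in numbers 1 and 4 overlapped, and number 4 minus number 1 was 0.10 ± 0.12 (adjusted p = 0.585). ANKRD37, a small ankyrin repeat protein, averaged 2.03 ± 0.125 CPM in number 1 and 7.65 ± 0.389 in number 2. MXI1, which opposes MYC, averaged 38 ± 4.42 and 77.7 ± 4.75 CPM, and KDM3A, a histone demethylase, 79.8 ± 8.39 and 144 ± 14.6 CPM in those numbers. The differences of these 3 genes between number 1 and numbers 2 and 3 were -1.9 ± 0.20, -1.0 ± 0.06 and -0.91 ± 0.05 (adjusted p = 8.54e-05, 3.94e-07 and 1.89e-07).

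**Figure D2:**
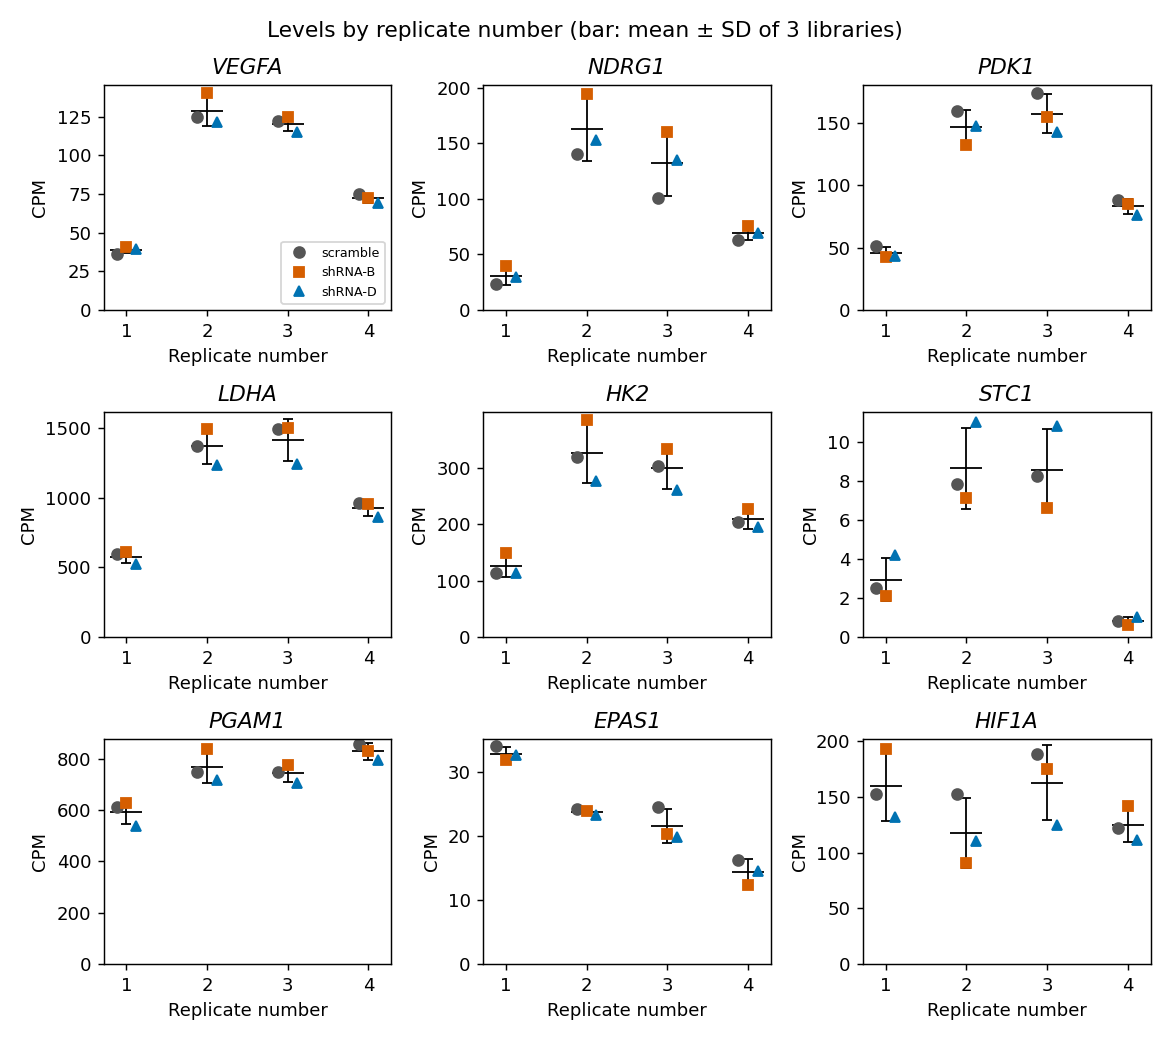
CPM of 9 genes by replicate number (x axis), with 1 point per library (grey circle, scramble; orange square, shRNA-B; blue triangle, shRNA-D) and the mean ± SD of the 3 libraries of a number. VEGFA, NDRG1, PDK1, LDHA and HK2 are lowest in number 1, STC1 is lowest in number 4, PGAM1 averages 828 CPM in number 4 against 767 and 744 in numbers 2 and 3, EPAS1 is highest in number 1, and HIF1A overlaps between numbers.

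Both mitophagy receptors were lower in number 1. BNIP3 (ENSG00000176171), an outer mitochondrial membrane protein that recruits autophagosomes, was at 80.8, 84.4 and 63.2 CPM in scramble, shRNA-B and shRNA-D libraries of number 1, 208, 229 and 176 in number 2, 221, 266 and 189 in number 3 and 144, 138 and 117 in number 4. Number 4 lay wholly between, and number 1 was below numbers 2 and 3 (-1.5 ± 0.06, adjusted p = 9.85e-09). BNIP3L, its paralog, differed (-0.97 ± 0.07, adjusted p = 1.09e-06), and its libraries overlapped between numbers, with the shRNA-B library the lowest in each.

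The carbonic anhydrases CA9 and CA12 handle acid at the cell surface. CA9 (ENSG00000107159), a widely used hypoxia marker, had 0 to 37 counts per library, that is 0.139, 0.082 and 0.226 CPM in number 1, 0.457, 0.284 and 0.305 in number 2, 0.157, 0.234 and 0.133 in number 3 and 0, 0.0601 and 0.0487 in number 4, with 0 counts in the scramble library of number 4. CA9 was lower in number 4 than in numbers 2 and 3 (-2.77 ± 0.62, adjusted p = 0.00401), and was not called in number 1 (-0.75 ± 0.49, adjusted p = 0.272). These few counts leave wide intervals. CA12 was at 8.96, 7.48 and 7.58 CPM in number 1, 11.7, 10.7 and 10.5 in number 2, 11.6, 9.85 and 9.91 in number 3 and 7.26, 5.65 and 6.4 in number 4, where every library lay below all others.

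The 4 enzymes of collagen and disulfide formation were lower in number 1, with differences from -1.26 to -0.50. P4HA1, the catalytic subunit of collagen prolyl hydroxylase, averaged 88.7 ± 5.2, 202 ± 5.93, 224 ± 14.2 and 139 ± 5.53 CPM in numbers 1 to 4. The lysyl hydroxylase PLOD2 averaged 117 ± 4.11 CPM in number 1 and 269.9 ± 32.6 in number 3. The oxidase ERO1A, which makes disulfides in the endoplasmic reticulum, and the second prolyl hydroxylase subunit P4HA2 differed (-0.50 ± 0.07 and -0.58 ± 0.07, adjusted p = 0.000111 and 5.05e-05).

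Pyruvate dehydrogenase kinases block the entry of pyruvate into the mitochondrial citrate cycle, and PDK1 is the member best known as a HIF target. PDK1 (ENSG00000152256) was at 51.1, 42.1 and 43.4 CPM in scramble, shRNA-B and shRNA-D libraries of number 1, 159.8, 132 and 148 in number 2, 174, 155 and 143 in number 3 and 88.2, 85.2 and 76.2 in number 4. Number 1 was lowest and number 4 lay between without overlap. PDK1 was lower in number 1 than in numbers 2 and 3 (-1.74 ± 0.07, 3.34-fold, adjusted p = 5.58e-09). PDK3, a second kinase of the family, moved (-0.24 ± 0.07, adjusted p = 0.019), and this call was lost at an adjusted p of up to 0.153 without scramble replicate 1 or 2, shRNA-B replicate 3 or shRNA-D replicate 1 or 2.

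Both glucose transporters were lower in number 1. SLC2A1 (ENSG00000117394), the widely expressed GLUT1, was at 53.6, 59.2 and 37.2 CPM in scramble, shRNA-B and shRNA-D libraries of number 1, 98.8, 128 and 85.3 in number 2, 96.6, 101 and 79.7 in number 3 and 79.9, 80.8 and 62.4 in number 4. Its levels were lower in number 1 than in numbers 2 and 3 (-0.99 ± 0.07, adjusted p = 9.75e-07). SLC2A3 (ENSG00000059804), the high-affinity GLUT3, was at 8.88, 16.1 and 13 CPM in number 1, 28.3, 39 and 31.6 in number 2, 21.1, 36.6 and 29.8 in number 3 and 8.2, 12.2 and 11.3 in number 4. Numbers 1 and 4 overlapped, and both lay below numbers 2 and 3 in every library (-1.31 ± 0.08 and -1.55 ± 0.08, adjusted p = 1.86e-07 and 2.73e-08).

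All 9 members of upper glycolysis, from glucose to the triose phosphates, were lower in number 1, with a median difference of -0.55. HK2 (ENSG00000159399), the inducible hexokinase, was at 114, 148 and 114 CPM in number 1, 319, 385 and 277 in number 2, 303, 333 and 261 in number 3 and 203, 227 and 195 in number 4. It was lower in number 1 (-1.32 ± 0.06, adjusted p = 2.64e-08), and so was HK1, the hexokinase present in most cells (-0.24 ± 0.06, adjusted p = 0.00731). For the isomerase GPI the difference was -0.31 ± 0.06, for the phosphofructokinases PFKL, PFKM and PFKP -0.55 ± 0.07, -0.26 ± 0.07 and -0.72 ± 0.07, for the aldolases ALDOA and ALDOC -0.75 ± 0.06 and -1.03 ± 0.07, and for TPI1 -0.45 ± 0.05. Some of these calls were lost when a single library was left out. HK1 reached an adjusted p of up to 0.115 without scramble replicate 1 or shRNA-B replicate 1. GPI reached up to 0.0561 without shRNA-B replicate 1, and PFKM reached up to 0.254 without shRNA-D replicate 1. In number 4 PFKP averaged 115 ± 3.59 CPM against 121 ± 14.2 in number 2 and 109.7 ± 5.88 in number 3 (number 4 minus numbers 2 and 3: 95% interval -0.14 to 0.14).

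PFKFB3 and PFKFB4 make fructose 2,6-bisphosphate, the activator of phosphofructokinase, and both were lower in number 1. PFKFB4 (ENSG00000114268) was at 19.1, 20.7 and 16.4 CPM in scramble, shRNA-B and shRNA-D libraries of number 1, 39.3, 51.8 and 42.9 in number 2, 41.4, 46.6 and 38.2 in number 3 and 23.4, 26.1 and 21 in number 4. Its libraries of numbers 2 and 3 held 38.2 CPM or more and all others 26.1 or less. The differences of number 1 were -1.21 ± 0.06 for PFKFB4 and -1.0 ± 0.06 for PFKFB3 (adjusted p = 6.13e-08 and 1.89e-07).

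The 6 enzymes of lower glycolysis, which recover ATP on the way to pyruvate, were all lower in number 1. GAPDH (ENSG00000111640), often used as a reference gene, was at 1858, 1899 and 1704 CPM in scramble, shRNA-B and shRNA-D libraries of number 1, 2957, 3212 and 2741 in number 2, 2570.3, 3056 and 2795 in number 3 and 2059.7, 1994 and 2050.1 in number 4. Its 3 libraries of number 1 lay below all others, and it was lower there than in numbers 2 and 3 (-0.66 ± 0.07, 1.58-fold, adjusted p = 8.89e-06). PGK1 (ENSG00000102144), phosphoglycerate kinase, was at 547, 528 and 521 CPM in number 1, 1169, 1276 and 1189 in number 2, 1182, 1361 and 1255 in number 3 and 749, 724 and 738 in number 4. It was lower in number 1 (-1.22 ± 0.06, adjusted p = 3.73e-08), more than any other of the 6. The differences were -0.76 and -0.79 for the enolases ENO1 and ENO2, -0.46 for the pyruvate kinase PKM and -0.35 for the mutase PGAM1. PGAM1 averaged 828 ± 31.5 CPM in number 4 against 767 ± 62.8 in number 2 and 744 ± 35.4 in number 3, and it was above number 1 (0.49 ± 0.06, adjusted p = 8.25e-05).

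Lactate dehydrogenase closes the route from glucose to lactate, and its A subunit is the HIF target. LDHA (ENSG00000134333) was at 592, 608 and 526 CPM in scramble, shRNA-B and shRNA-D libraries of number 1, 1371, 1490.3 and 1237 in number 2, 1493, 1501 and 1237 in number 3 and 963, 951 and 860.1 in number 4. Number 1 was below numbers 2 and 3 (-1.27 ± 0.06, 2.41-fold, adjusted p = 1.17e-08), and number 4 lay between without overlap. LDHB, the B subunit, was lower (-0.34 ± 0.07, adjusted p = 0.00145). Together the 17 glycolytic enzymes from hexokinase to lactate dehydrogenase took 1.02% to 1.09% of all counts in number 1, 1.5% to 1.67% in number 2, 1.41% to 1.49% in number 3 and 1.25% to 1.33% in number 4.

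Several calls of number 4 were lost when a single library was left out, in some genes whichever of many libraries it was. Against numbers 2 and 3, the adjusted p of ALDOA rose to up to 0.283 without scramble replicate 1 or 4, shRNA-B replicate 1, 2, 3 or 4 or shRNA-D replicate 1, 2, 3 or 4. For GPI it rose to up to 0.159 without scramble replicate 3 or 4, shRNA-B replicate 2 or 4 or shRNA-D replicate 3 or 4, and for HK1 to up to 0.169 without scramble replicate 3 or 4, shRNA-B replicate 4 or shRNA-D replicate 4. For ARNT it rose to up to 0.0633 without scramble replicate 4 or shRNA-B replicate 4, and for EGLN1 to up to 0.138 without scramble replicate 4 or shRNA-B replicate 4. Against number 1, it rose to up to 0.0955 without scramble replicate 4, shRNA-B replicate 1 or shRNA-D replicate 1 for ENO2, to up to 0.0705 without scramble replicate 1 or shRNA-B replicate 4 for PLOD2 and to up to 0.185 without scramble replicate 1, 3 or 4, shRNA-B replicate 3 or shRNA-D replicate 1 or 4 for CA9. For TPI1 it rose to up to 0.259 without scramble replicate 1, 2 or 4, shRNA-B replicate 1, 3 or 4 or shRNA-D replicate 1, 2, 3 or 4.

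**Figure D3:**
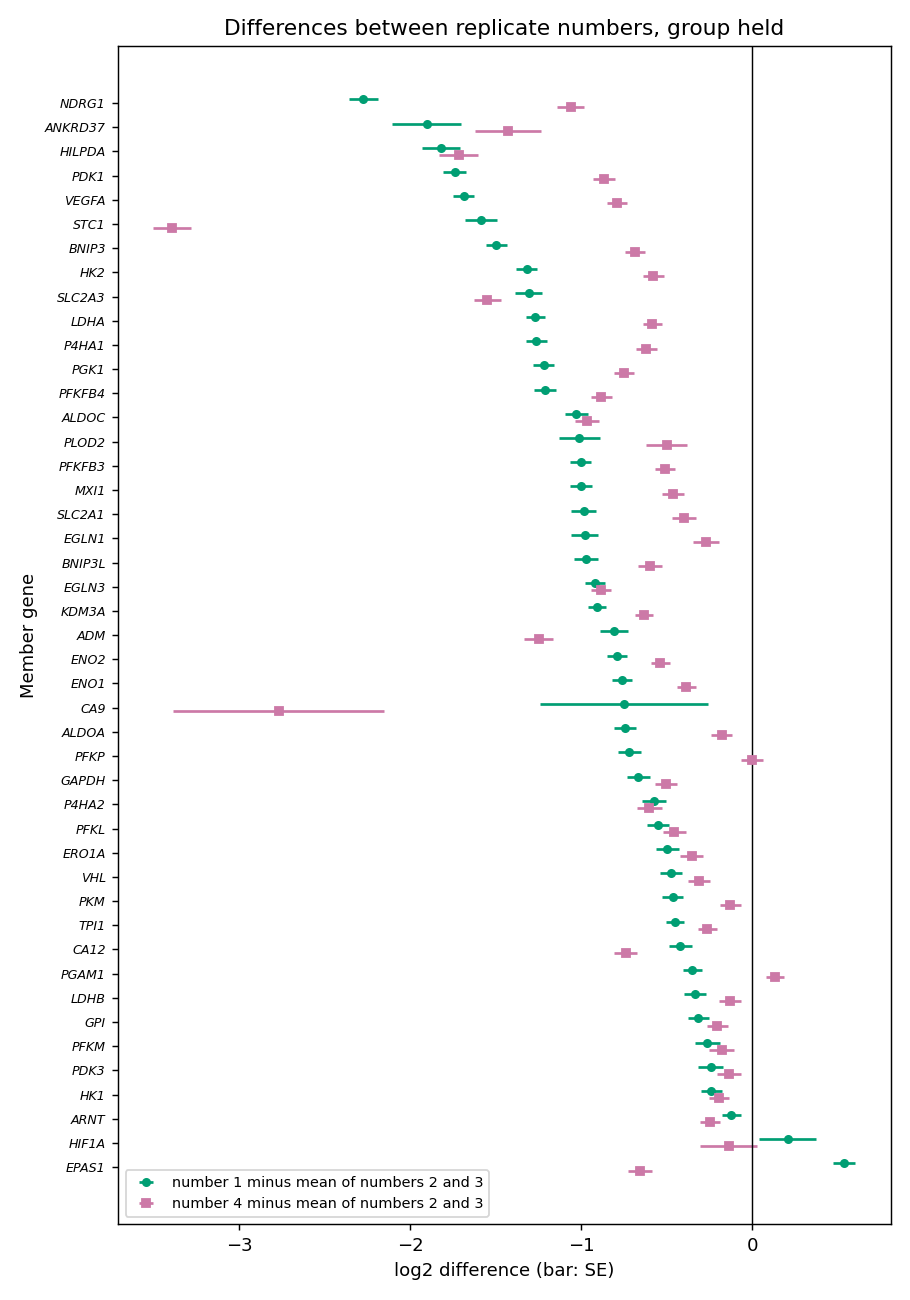
Difference in log2 level (x axis, with SE) of each member between number 1 and the mean of numbers 2 and 3 (green circles) and between number 4 and the mean of numbers 2 and 3 (pink squares), group held. Circles lie left of 0 for 43 of the 45 genes and reach -2.27 for NDRG1, and the square of STC1 lies at -3.39.

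Ratios within families were compared for 10 pairs of members. The ratio of HK2 to HK1 was 2.11-fold higher in numbers 2 and 3 than in number 1, that of LDHA to LDHB 1.91-fold and that of PDK1 to PDK3 2.83-fold, each without overlap between the 3 and the 6 libraries. In an exact 2-sided permutation test each had p = 0.0238, the smallest that 3 against 6 libraries allow. After Benjamini-Hochberg adjustment over 10 ratios each was at 0.0794, so these ratios did not pass. Because each was already at the smallest possible p, this test cannot decide whether the 3 ratios differed. The other 7 ratios, among them ALDOC to ALDOA and ENO2 to ENO1, overlapped. The pairs were chosen after levels by number had been seen.

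Other properties of the libraries also went with the number. Mitochondrial transcripts took 6.78% to 7.34% of counts in number 1, 5.65% to 6.01% in number 2, 6.56% to 7.29% in number 3 and 6.03% to 6.64% in number 4. Between 45914 and 46576 identifiers were detected in the libraries of number 1, 41924 to 44237 in number 2, 42119 to 42304 in number 3 and 43881 to 45490 in number 4. Of the line markers, NEFM, a neurofilament protein, averaged 4.74, 17.1, 16.6 and 104 CPM in numbers 1 to 4, and KRT8, a keratin, 35.1, 37.4, 34.9 and 7.22 CPM. The summed level of the 24 markers of other cell types was 19.9 to 23.7 CPM in number 1, 19.1 to 19.9 in number 2, 14.8 to 18.6 in number 3 and 13.3 to 14.1 in number 4. The part of any of these in the differences of the 45 genes was not tested.

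Between scramble and knockdown cells no member was called in the model of group alone. With shRNA-B 0 were higher and 0 lower, beside 0.247% and 0.630% of all tested genes, and with shRNA-D 0 and 0, beside 0.0721% and 0.197%. For the mean of both hairpins the counts were 0 and 0, beside 0.125% and 0.106%. At an unadjusted p under 0.05, edgeR gave 0 higher and 1 lower with shRNA-B, 0 and 1 with shRNA-D and 0 and 0 for the mean. In all, 7.75%, 4.66% and 5.47% of tested genes had such a p in these contrasts. DESeq2 called 1 member lower with shRNA-D, PFKM, beside 178 of all tested genes, and 0 otherwise. Between the hairpins (shRNA-D minus shRNA-B) 0 members were higher and 1, PFKM, was lower, beside 0.467% and 0.485%. At an unadjusted p under 0.05 these counts were 2 and 2, beside 4.21% and 5.14%. DESeq2 called 0 and 1, beside 388 and 427 of all tested genes. Numbers pair the libraries by the data, so the same contrasts were also fitted with the number as a block, which took the common biological coefficient of variation from 25% to 12.1%.

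With the block, 5 members rose and 6 fell with shRNA-B, beside 4.04% and 5.54% of all tested genes. With shRNA-D 3 rose and 5 fell, beside 1.05% and 2.26%. For the mean of both hairpins 2 rose and 3 fell, beside 1.62% and 3.45%. Between the hairpins 4 were higher and 15 lower with shRNA-D than with shRNA-B, beside 5.91% and 6.95% of all tested genes. The median difference of the 45 was 0.04 with shRNA-B, -0.07 with shRNA-D and -0.10 between the hairpins, against 0.00 or -0.01 for all tested genes. All contrasts with scramble use the same 4 scramble libraries, and the hairpin values below are from the model with the block.

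**Figure D4:**
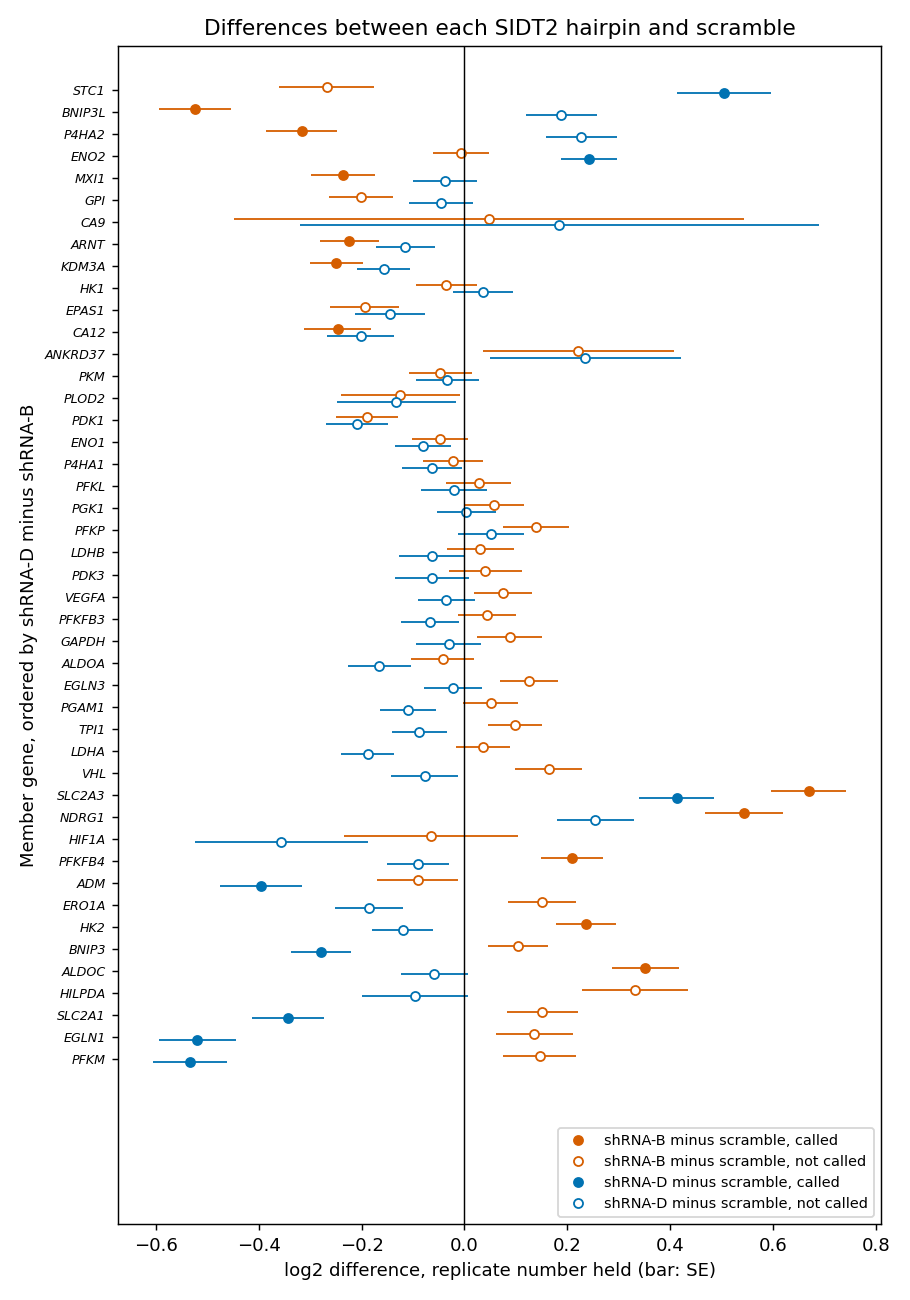
Difference in log2 level (x axis, with SE) from scramble of each member with shRNA-B (orange) and shRNA-D (blue) in the model with the number held, ordered by the difference between the hairpins; filled circles were called and open ones were not. SLC2A3 lies right of 0 with both hairpins, PFKM and EGLN1 lie at -0.53 and -0.52 with shRNA-D, and BNIP3L lies at -0.52 with shRNA-B.

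Among the genes of glucose uptake and phosphorylation, SLC2A3 rose with shRNA-B (0.67 ± 0.07, adjusted p = 8.9e-05) and also rose with shRNA-D (0.41 ± 0.07, adjusted p = 0.00688). In all 4 numbers its knockdown libraries were above the scramble library of the same number. These calls held in each fit that left out a library. SLC2A1 fell with shRNA-D (-0.34 ± 0.07, adjusted p = 0.0148), with an adjusted p of up to 0.149 without scramble replicate 1, 3 or 4 or shRNA-D replicate 1, 2 or 4, and was at 0.15 ± 0.07 with shRNA-B (adjusted p = 0.213). It was lower with shRNA-D than with shRNA-B in 4 of 4 numbers (-0.49 ± 0.07, adjusted p = 0.000542). HK2 rose with shRNA-B (0.24 ± 0.06, adjusted p = 0.0226, up to 0.11 without scramble replicate 1, 2 or 4 or shRNA-B replicate 1) and was lower with shRNA-D than with shRNA-B (-0.36 ± 0.06, adjusted p = 0.00168).

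PFKM (ENSG00000152556), the muscle type subunit of phosphofructokinase, separated the hairpins in both models. It was at 94.5, 108, 99.9 and 93.1 CPM in scramble libraries 1 to 4, 103, 125, 115 and 96 with shRNA-B and 54.5, 75.7, 73.1 and 71.2 with shRNA-D. All 4 shRNA-D libraries lay below every other library. PFKM was lower with shRNA-D than with shRNA-B without the block (-0.68 ± 0.12, adjusted p = 0.0135) and with it (-0.68 ± 0.07, adjusted p = 7.94e-05). Against scramble it fell with the block (-0.53 ± 0.07, adjusted p = 0.00107) and was not called without it (-0.53 ± 0.12, adjusted p = 0.115). The call between the hairpins held without any single library and was lost without the 3 libraries of any number, with adjusted p-values from 0.0597 to 0.152. Its relatives PFKL and PFKP were not called with either hairpin.

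ALDOC (ENSG00000109107), an aldolase best known from brain, was at 14.5, 28.3, 25.9 and 15.5 CPM in scramble libraries 1 to 4, 18.2, 39.5, 35.4 and 17.1 with shRNA-B and 12.6, 29.1, 26.7 and 14.2 with shRNA-D. It was above scramble in 4 of 4 numbers with shRNA-B and rose (0.35 ± 0.07, adjusted p = 0.00391), while with shRNA-D it was at -0.06 ± 0.07 (adjusted p = 0.743). PFKFB4 rose with shRNA-B (0.21 ± 0.06, adjusted p = 0.0451), a call lost at an adjusted p of up to 0.227 without any 1 library. ENO2 rose with shRNA-D (0.24 ± 0.05, adjusted p = 0.0264, up to 0.112 without scramble replicate 2 or 3 or shRNA-D replicate 1, 3 or 4) and was above scramble in 4 of 4 numbers. GAPDH, PGK1, PGAM1, ENO1, PKM, LDHA and LDHB were not called with either hairpin.

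Among the oxygen sensors EGLN1 (ENSG00000135766), the main prolyl hydroxylase for HIF, was at 98.9, 182, 197 and 154 CPM in scramble libraries 1 to 4, 116, 192, 221 and 162 with shRNA-B and 59.2, 135, 134 and 119.6 with shRNA-D. Each shRNA-D library was below the scramble and the shRNA-B library of its number, although the groups overlapped across numbers. EGLN1 fell with shRNA-D (-0.52 ± 0.08, adjusted p = 0.00163) and was lower than with shRNA-B (-0.66 ± 0.08, adjusted p = 0.000133). VHL and EGLN3 were not called against scramble. VHL was lower with shRNA-D than with shRNA-B (-0.24 ± 0.06, adjusted p = 0.0258), with an adjusted p of up to 0.168 without scramble replicate 1 or 4, shRNA-B replicate 1, 2, 3 or 4 or shRNA-D replicate 1, 3 or 4. HIF1A was at -0.36 ± 0.17 with shRNA-D (adjusted p = 0.377) and EPAS1 at -0.19 ± 0.07 with shRNA-B (adjusted p = 0.0942). ARNT fell with shRNA-B (-0.22 ± 0.06, adjusted p = 0.0257, up to 0.106 without scramble replicate 1 or 3 or shRNA-B replicate 1, 3 or 4).

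Each mitophagy receptor was called with a different hairpin. BNIP3L (ENSG00000104765) was at 57.3, 115, 121 and 73 CPM in scramble libraries 1 to 4, 39.7, 66.9, 89.5 and 56.9 with shRNA-B and 69.8, 127, 135 and 82.6 with shRNA-D. It was lowest with shRNA-B and highest with shRNA-D in each number. BNIP3L fell with shRNA-B (-0.52 ± 0.07, adjusted p = 0.000371) and was at 0.19 ± 0.07 with shRNA-D (adjusted p = 0.197). BNIP3 instead fell with shRNA-D (-0.28 ± 0.06, adjusted p = 0.0187, up to 0.153 without scramble replicate 1 or 4 or shRNA-D replicate 1, 2, 3 or 4) and was at 0.10 ± 0.06 with shRNA-B (adjusted p = 0.326). The differences between the hairpins were 0.71 ± 0.07 for BNIP3L and -0.38 ± 0.06 for BNIP3 (adjusted p = 4.3e-05 and 0.000986).

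Of the secreted and stress targets, NDRG1 rose with shRNA-B (0.54 ± 0.08, adjusted p = 0.000539) and was above scramble in 4 of 4 numbers with each hairpin, although with shRNA-D it was not called (0.25 ± 0.08, adjusted p = 0.1). STC1 rose with shRNA-D (0.51 ± 0.09, adjusted p = 0.0075, and 0.0522 without shRNA-D replicate 1) and was at -0.27 ± 0.09 with shRNA-B (adjusted p = 0.0929). Between the hairpins STC1 differed (0.77 ± 0.09, adjusted p = 0.00017), with the shRNA-D library above in 4 of 4 numbers. ADM fell with shRNA-D (-0.40 ± 0.08, adjusted p = 0.0145, up to 0.0921 without scramble replicate 1 or 4 or shRNA-D replicate 1, 2 or 4). With shRNA-B, KDM3A fell (-0.25 ± 0.05, adjusted p = 0.00784) and MXI1 (-0.24 ± 0.06, adjusted p = 0.0283, up to 0.119 without scramble replicate 1, 3 or 4 or shRNA-B replicate 1 or 4). VEGFA was at 0.07 ± 0.06 with shRNA-B and -0.04 ± 0.06 with shRNA-D (adjusted p = 0.484 and 0.834), with 95% intervals of -0.05 to 0.20 and -0.16 to 0.09. ANKRD37 was not called in a hairpin contrast, and HILPDA was called between the hairpins, at -0.43 ± 0.10 (adjusted p = 0.022, up to 0.0987 without shRNA-B replicate 1, 2 or 3 or shRNA-D replicate 1, 2 or 3).

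P4HA2 (ENSG00000072682) was at 27.2, 39.4, 36.1 and 25.5 CPM in scramble libraries 1 to 4, 18.6, 35, 31.2 and 19.9 with shRNA-B and 32, 44.3, 42.4 and 30.6 with shRNA-D, and in 4 of 4 numbers it was below scramble with shRNA-B and above it with shRNA-D. It fell with shRNA-B (-0.32 ± 0.07, adjusted p = 0.011, up to 0.0575 without scramble replicate 1 or shRNA-B replicate 1), was at 0.23 ± 0.07 with shRNA-D (adjusted p = 0.109) and differed between the hairpins (0.54 ± 0.07, adjusted p = 0.000279). ERO1A (ENSG00000197930) was at 110.3, 159.8, 186 and 126 CPM in scramble libraries 1 to 4, 140.02, 164, 196 and 139 with shRNA-B and 101, 141, 143 and 121 with shRNA-D. In each number ERO1A was highest with shRNA-B and lowest with shRNA-D, a difference between the hairpins of -0.34 ± 0.07 (adjusted p = 0.00517), and it was not called against scramble. P4HA1 and PLOD2 were not called in a hairpin contrast.

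CA12 fell with shRNA-B (-0.25 ± 0.07, adjusted p = 0.0314, up to 0.126 without scramble replicate 1, 3 or 4, shRNA-B replicate 1, 3 or 4 or shRNA-D replicate 1, 2, 3 or 4). For the mean of both hairpins CA12, KDM3A and PDK1 fell (-0.22 ± 0.06, -0.20 ± 0.04 and -0.20 ± 0.05, adjusted p = 0.0373, 0.0177 and 0.0428). These mean calls were lost when a single library was left out. The adjusted p of CA12 rose to up to 0.203 without scramble replicate 1, 2, 3 or 4, shRNA-B replicate 1, 3 or 4 or shRNA-D replicate 1, 2, 3 or 4. That of KDM3A rose to up to 0.129 without scramble replicate 1, 2 or 3, shRNA-B replicate 1 or shRNA-D replicate 1 or 3, and that of PDK1 to up to 0.218 without scramble replicate 1, 2, 3 or 4, shRNA-B replicate 1 or 3 or shRNA-D replicate 1, 3 or 4. NDRG1 and SLC2A3 rose for the mean (0.40 ± 0.07 and 0.54 ± 0.06, adjusted p = 0.00341 and 0.0004) and did so in each fit that left out a library. PDK1 was below scramble in 4 of 4 numbers with each hairpin. CA9 was not called, with intervals of -1.03 to 1.12 for shRNA-B and -0.91 to 1.28 for shRNA-D. Between the hairpins, ADM, LDHA, NDRG1, PFKFB4, SLC2A3 and TPI1 were also lower with shRNA-D (-0.30, -0.23, -0.29, -0.30, -0.26 and -0.19). Each of these 6 calls was lost when a single library was left out, at an adjusted p of up to 0.151 without shRNA-B replicate 1, 2 or 3 or shRNA-D replicate 1, 2, 3 or 4 for ADM and 0.0903 without shRNA-B replicate 1, 2 or 3 or shRNA-D replicate 1, 2 or 3 for LDHA. For NDRG1 it was up to 0.146 without shRNA-B replicate 1 or 3 or shRNA-D replicate 1, 2 or 4, and for PFKFB4 up to 0.0664 without shRNA-D replicate 1. For SLC2A3 it was up to 0.177 without scramble replicate 4, shRNA-B replicate 1 or 3 or shRNA-D replicate 1, 2, 3 or 4, and for TPI1 up to 0.196 without scramble replicate 1, 2 or 4, shRNA-B replicate 1, 2, 3 or 4 or shRNA-D replicate 1, 2, 3 or 4.

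A second list held 91 other genes of the pathway, of which 82 were tested: further regulators and targets of HIF and further genes of glycolysis and pyruvate use. Of these, 63 (76.8%) differed by number, beside 47.2% of all tested genes. In number 1 against numbers 2 and 3, 38 were lower (46.3%) and 12 higher (14.6%), beside 19.5% and 14.5% of all tested genes. In number 4 against numbers 2 and 3, 42 were lower (51.2%) and 8 higher (9.76%), beside 19.0% and 14.8%. BHLHE40, a transcription factor and HIF target, averaged 36.4 ± 2.52, 169 ± 17.1, 135 ± 18.4 and 35.5 ± 1.89 CPM in numbers 1 to 4, with -2.05 ± 0.08 in number 1 and -2.08 ± 0.08 in number 4 against numbers 2 and 3 (adjusted p = 9.23e-09 and 3.92e-09). LOX, which crosslinks collagen, differed (-1.85 ± 0.06 and -1.12 ± 0.06, adjusted p = 5.57e-09 and 4.12e-08), and CXCR4, a chemokine receptor (-1.4 ± 0.08 and -1.36 ± 0.08, adjusted p = 1.23e-07 and 7.67e-08). TFRC, the transferrin receptor, was lower in number 1 (-0.97 ± 0.06, adjusted p = 3.97e-07), and VLDLR, a lipoprotein receptor, lower in number 4 than in numbers 2 and 3 (-0.97 ± 0.06, adjusted p = 1.8e-07). SLC16A7, a monocarboxylate transporter, was lower in number 4 than in numbers 2 and 3 (-1.8 ± 0.15, adjusted p = 1.48e-06). Among the 12 that were higher in number 1 were EGLN2, HIF1AN and the kinase PDK2 (0.21 ± 0.06), picked after their values were seen. The 12 also held IGFBP3 and KDM5B, which were listed as known HIF targets.

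Between groups, 0 of the 82 were called against scramble without the block, and PDP2, a phosphatase that reactivates pyruvate dehydrogenase, was the gene called between the hairpins. PDP2 was at 30.6, 39.4, 39.7 and 33.9 CPM in scramble libraries 1 to 4, 32.8, 43.4, 37.3 and 34.7 with shRNA-B and 16.7, 26.4, 22.2 and 23.8 with shRNA-D. All shRNA-D libraries lay below all others (-0.73 ± 0.14 between the hairpins, adjusted p = 0.0304, up to 0.0892 without shRNA-B replicate 2 or 3 or shRNA-D replicate 1, 3 or 4). At an unadjusted p under 0.05, 3 were higher and 6 lower with shRNA-B, beside 3.30% and 4.45% of all tested genes. With shRNA-D there were 0 and 3, beside 1.77% and 2.89%. DESeq2 called 0 and 0 with shRNA-B, beside 233 and 430 of all tested genes, and 0 and 1 with shRNA-D, beside 83 and 178. With the block 4 rose (4.88%) and 14 fell (17.1%) with shRNA-B, beside 4.04% and 5.54% of all tested genes. With shRNA-D 0 rose and 8 fell (9.76%), beside 1.05% and 2.26%. In place of that 0, 6 were higher at an unadjusted p under 0.05 in edgeR, beside 6.27% of all tested genes. DESeq2 with the block called 2 higher with shRNA-D, beside 444 of all tested genes. ARNT2, a relative of ARNT, fell with shRNA-B (-0.45 ± 0.06, adjusted p = 0.000603) and was higher in cells with shRNA-D than in those with shRNA-B (0.67 ± 0.06, adjusted p = 3.69e-05). PDP2 fell with shRNA-D (-0.70 ± 0.07, adjusted p = 0.000138), and CCNG2, a cyclin-related gene (-0.44 ± 0.06, adjusted p = 0.000979). TFRC, MLXIP and VLDLR fell with shRNA-B (-0.39 ± 0.06, -0.35 ± 0.06 and -0.36 ± 0.06, adjusted p = 0.00121, 0.00189 and 0.00198). TMEM45A and GPD1L fell with shRNA-D (-0.46 ± 0.07 and -0.43 ± 0.07, adjusted p = 0.00221 and 0.0039). TFRC, CCNG2 and VLDLR also fell for the mean of both hairpins (-0.36 ± 0.05, -0.36 ± 0.05 and -0.35 ± 0.05, adjusted p = 0.00136, 0.00109 and 0.00149).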

How the data were processed

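The values are estimated counts per gene, made by the authors from reads trimmed with fastp and quantified with kallisto, per the submitters' processing notes. No version and no genome build is given in the sources used here. The authors deposited 1 table for all 12 libraries. Estimated counts were rounded to whole numbers. Genes were filtered with filterByExpr, scaled by TMM and tested with edgeR 4.0.16 (quasi-likelihood F-test, robust, R 4.3.3, limma 3.58.1), with Benjamini-Hochberg adjustment over 26366 genes. Hairpin contrasts used a model of group, with the replicate number added as a block in a second model; contrasts of numbers used group and number. DESeq2 1.42.0, RLE scaling, no filter, and leaving out each library or number were the alternatives. Exact permutation tests used scipy 1.17.1 (Python 3.11.15). The edgeR fits were tested on simulated data.

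Libraries with the same number deviated together: the correlation of their deviations from the group means was 0.140 to 0.619 over 12 pairs, and -0.365 to 0.280 over 36 pairs with different numbers. All same-number pairs exceeded 0.1, so the numbers were taken to pair the libraries, from the data and not from the labels. Same-group libraries differed by more than counting noise (chi-square over degrees of freedom 24.7 to 133).

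The members and lists were chosen with earlier results of these data known. The contrasts of number 4 with number 1 and with numbers 2 and 3, and the ratios, were added after seeing the levels. Values are given in every library for SIDT2, for the 12 members with the smallest p in hairpin contrasts, for the 10 with the smallest p by number, and for HIF1A, EPAS1, VHL, VEGFA, CA9, PDK1, SLC2A1, GAPDH and LDHA. Of the other pathway genes up to 4 per contrast are named. Each library's depth leaves single-digit counts only for CA9, which had 0 to 37. Identifiers of pseudogenes that could share reads held at most 1.34% of the counts of SLC2A3 and 0.550% of those of BNIP3.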

Additional observations from a re-analysis of the deposited data

Results flagged for a closer look

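PFKM differed between the 2 hairpins by a test of the difference itself in the model of group alone (-0.68 ± 0.12 for shRNA-D minus shRNA-B, adjusted p = 0.0135, edgeR). It was lower with shRNA-D in 4 of 4 numbers. PDP2, the phosphatase of pyruvate dehydrogenase, differed in the same way (-0.73 ± 0.14, adjusted p = 0.0304), also lower with shRNA-D in 4 of 4 numbers. In 138 groups of 4 libraries (the 45 members and SIDT2 in each of the 3 groups), 0 held a library that stood apart by Dixon's test. Levels differed by number in 44 of the 45 members. Such spread within a group widens the range that this test sets a gap against. The 0 therefore cannot show that no library stood apart.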

How the results depend on the processing

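With the replicate block, the count of members called higher and lower went from 0 and 0 to 5 and 6 with shRNA-B, to 3 and 5 with shRNA-D and to 2 and 3 for the mean of both hairpins, and from 0 and 1 to 4 and 15 between the hairpins. Without the block, DESeq2 called 1 lower with shRNA-D, beside 178 of all tested genes. Between the hairpins 0 were lower without number 1, 2, 3 or 4, beside 25, 21, 17 and 48 of all tested genes. With the block, 5 were higher with shRNA-D in the fit without the filter and 5 in DESeq2, beside 642 and 444 of all genes. For the mean 6 and 5 were lower in these 2 fits, with no count over all genes given here. Leaving out 1 library with the block gave 512 to 1019 of all tested genes higher and 945 to 1689 lower with shRNA-B. Of the members, 3 to 5 were higher and 2 to 8 lower with shRNA-B, and 1 to 5 and 2 to 6 with shRNA-D. Without shRNA-D replicate 1, 1 member was higher with shRNA-D, beside 120 of all tested genes. Without shRNA-B replicate 2, 5 were, beside 488. Over these fits no count of all genes is given here for those lower with shRNA-D, for the mean or between the hairpins. For the mean 0 to 4 members were lower, and between the hairpins 7 to 15. Each of these lowest counts was reached without scramble replicate 1 or shRNA-D replicate 1, and several also without others: 3 higher with shRNA-B without shRNA-B replicate 1 or scramble replicate 2 or 4, 2 lower without shRNA-B replicate 1, 2 lower with shRNA-D without shRNA-D replicate 2 or 4 or scramble replicate 4, and 0 for the mean without shRNA-B replicate 1, scramble replicate 2 or shRNA-D replicate 3. In number 1 against numbers 2 and 3, 2 were higher without the filter, and 39 to 41 were lower over fits that left out 1 library. No share over all genes is given here for the contrasts of numbers, so changes in these counts cannot be set against those of all genes. Number 4 against numbers 1 to 3 had 1 to 2 higher and 17 to 29 lower, and against numbers 2 and 3 it had 0 to 1 higher and 33 to 38 lower. Between numbers 2 and 3, 0 to 1 were higher without single libraries, 2 higher and 2 lower without the filter, and 2 and 1 in DESeq2. No called difference of a member changed sign, and the median of all genes moved by less than 0.1 under the other scaling. CA9 had too few counts to fix a fold, and the scramble library of number 4 held 0. What a replicate number stands for cannot be told from the labels, and the cause of these changes was not tested.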
